A study of Canis lupus familiaris with 28 samples.

Results

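Toll-like receptors are sensors of microbial molecules. TLR1, TLR2, TLR4, TLR5 and TLR6 act at the cell surface, where TLR2 pairs with TLR1 or TLR6 to bind bacterial lipoproteins, TLR4 binds lipopolysaccharide and TLR5 binds flagellin. TLR3, TLR7, TLR8 and TLR9 act in endosomes and sense nucleic acids. All of these receptors except TLR3 signal through the adaptor MYD88, which leads to activation of NF-κB and to production of inflammatory cytokines. In blood, TLR2, TLR4 and TLR8 are known from neutrophils and monocytes, whereas TLR7 and TLR9 are known from B cells and plasmacytoid dendritic cells. The genes described here were TLR1 to TLR9 and MYD88, chosen by name, with every probe of the array that carries one of these names. Of these 10 genes, 9 had a probe, with 14 probes among the 43603 of the array. No probe was named TLR6. After the filter on signal, 12 probes of 8 genes were left among 30202.

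Blood RNA from 20 dogs with atopic dermatitis (AD dogs) and 8 healthy dogs was measured on Agilent canine microarrays with 2 colors and a separate array per animal. The AD dogs were privately owned animals of various breeds, sampled while clinical signs were visible and free of anti-inflammatory drugs for some weeks, and the healthy dogs were blood donors. RNA of each dog was labelled with Cy5. The common reference, a pool of RNA from other healthy dogs, was labelled with Cy3 and was the same on every array. Each value below is the log2 ratio of the dog to this common reference, set so that the median of each array is 0, unless a signal is named. The dogs are numbered as in the sample labels, and each array is a different animal.

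The dog's channel was well above background for 84.3% to 90.3% of all probes in healthy dogs and for 51.7% to 87.5% in AD dogs. AD and healthy dogs were never on a common slide or scanned on a common day, so slide, scan day and disease cannot be told apart. Detection was lowest on scan day 5, with 51.7% to 63.2% on its 6 arrays of AD dogs. The labels give whole blood as the source, while the study's methods speak of nuclear cells of peripheral blood. Marker genes of neutrophils (10 measured), monocytes (7 measured), T cells (6 measured) and red cells (7 measured) were all well above background on all 28 arrays, as were 4 of 8 B cell markers. Fewer cells of a type and less RNA per cell cannot be told apart in such samples.

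The probes are 60 bases long. The following are shown because they read the stretch encoding the TIR domain, the cytoplasmic part through which receptors and MYD88 bind each other, with the TLR8 probe added as an example of a probe poor in G and C. Capitals mark the longest run of G and C bases in each, and positions are in build canFam3 as given in the array files.
TLR2 (probe A_11_P053706, chr15:51464976-51465035, plus strand): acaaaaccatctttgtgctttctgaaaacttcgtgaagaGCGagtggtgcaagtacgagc
TLR4 (probe A_11_P051121, chr11:71366306-71366365, plus strand): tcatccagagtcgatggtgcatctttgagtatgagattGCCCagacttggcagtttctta
TLR9 (probe A_11_P0000019724, chr20:37546736-37546795, plus strand): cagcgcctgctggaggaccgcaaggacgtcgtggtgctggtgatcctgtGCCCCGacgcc
MYD88 (probe A_11_P0000022440, chr23:7904206-7904265, plus strand): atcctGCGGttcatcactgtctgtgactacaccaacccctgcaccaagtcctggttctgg
TLR8 (probe A_11_P0000034566, chrX:9399819-9399878, plus strand): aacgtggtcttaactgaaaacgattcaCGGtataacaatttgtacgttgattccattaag
The TLR9 probe held 70% G and C bases, a content reached by only 0.897% of all probes of the array, while the TLR8 probe held 35%. The TLR5 probe held 80%, with a run of 15 G and C bases, and 0.188% of probes had as much. TLR7 and TLR8 are neighbors on chromosome X, where their probes lay 39.4 kb apart.

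Signal above background was found in most dogs for 7 of the receptors and for MYD88. For TLR9, what part its transcript had in this signal was not tested, as described below. Probes of TLR1, TLR2, TLR4, TLR7, TLR8, TLR9 and MYD88 were well above background in all 20 AD dogs and all 8 healthy dogs, and none was saturated. A 2nd MYD88 probe was the exception, above background in only 6 AD dogs and 3 healthy dogs. TLR3 was above background in 15 of 20 AD dogs and in 8 of 8 healthy dogs, but on scan day 5 in only 2 of 6 dogs. TLR5 was above background in 2 of 20 AD dogs, in 0 of 8 healthy dogs and in the common reference on 0 of 28 arrays. The place of the TLR5 probe in the transcript was not checked, so its low signal does not show that TLR5 transcript was absent. Of all probes of the array, 7.92% were above background on at most 2 arrays. The median number of arrays above background was 27 over all probes. Over probes with at least as much G and C as the TLR5 probe it was 28. Since TLR5 and the 2nd MYD88 probe did not pass the filter on signal, the groups were not compared for them.

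Processed signals give the depth behind the ratios, but signals of different probes cannot be ranked against each other. The brightest TLR2 probe gave 4333 to 33470 in AD dogs and 4882 to 19994 in healthy dogs. For TLR4 the signal was 3498 to 18901 in AD dogs (median 6121) and 3150 to 7025 in healthy dogs (median 5051). The TLR8 signal was 4724 to 18068 in AD dogs and 2979 to 8463 in healthy dogs. TLR3 was near the detection limit, with 10.3 to 101 in AD dogs (median 69.0) and 72.2 to 118 in healthy dogs (median 96.2). The TLR5 signal was 8.73 to 105 in AD dogs and 12.0 to 48.3 in healthy dogs.

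With limma, none of the 30202 probes left by the filter differed between the groups at the study's threshold, an adjusted p of 0.085 (0% called, smallest adjusted p = 0.490). The study itself reported differing transcripts at this threshold, after a filter that left fewer transcripts. The source of this disagreement was not tested. At an unadjusted p under 0.05, 1847 probes or 6.12% passed, 4.46% lower and 1.65% higher in AD dogs. None of the 12 probes of the receptors and MYD88 passed even this mark, and their smallest adjusted p was 0.866. The median difference over these 12 probes was 0.00084 on the log2 scale, against -0.0096 over all probes tested.

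**Figure D1:**
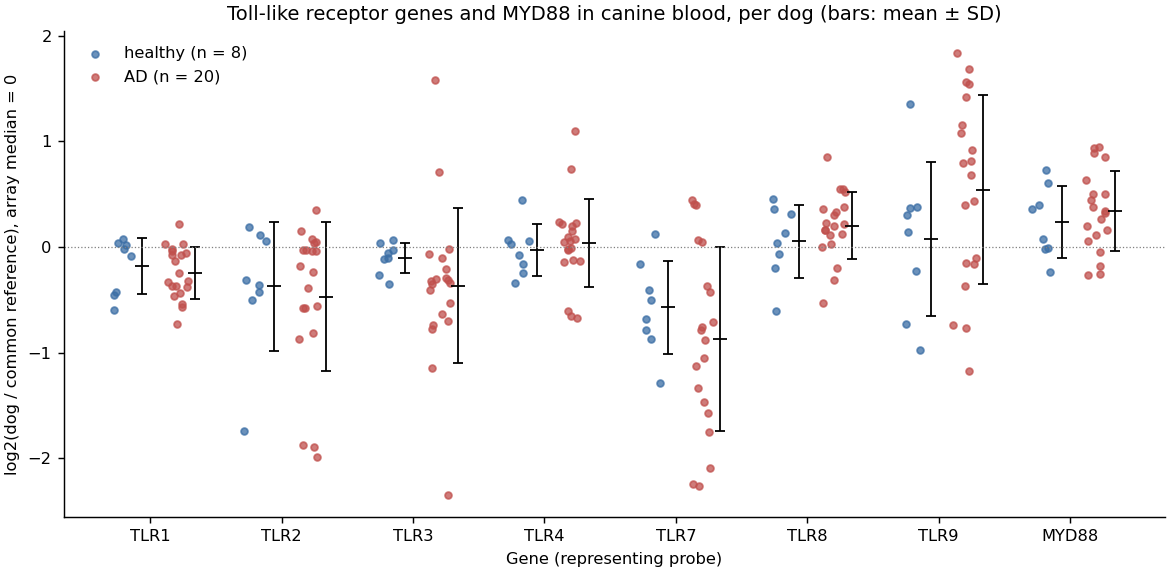
Log2 ratio of dog to common reference (vertical axis) for the representing, brightest probe of each gene (horizontal axis), with 1 point per dog and bars for the mean ± SD of 8 healthy (blue) and 20 AD dogs (red). The groups overlap for every gene, TLR7 and TLR9 have the largest SD among AD dogs (0.87 and 0.90), and 4 dogs lie far below the rest for TLR2.

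Among the surface receptors, TLR1, which works as a partner of TLR2, had a log2 ratio of -0.73 to 0.22 in AD dogs (median -0.29) and of -0.60 to 0.07 in healthy dogs (median -0.05). Over the AD dogs of scan day 5 the mean was -0.04, against -0.33 over the other AD dogs. The groups overlapped over most of their ranges. The difference was -0.06 ± 0.12 (SE, n = 20 and 8, limma unadjusted p = 0.588), with a 95% confidence interval of -0.30 to 0.17. TLR1 is closely related in sequence to TLR6 and TLR10, and cross-hybridization was not tested. TLR10 itself, measured by its own probe, differed by -0.06 ± 0.19.

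TLR2 showed a pattern that did not follow the groups. On its brightest probe, healthy dog 1 had a log2 ratio of -1.74, AD dog 1 of -1.87, AD dog 10 of -1.89 and AD dog 11 of -1.99. The other 24 dogs lay between -0.87 and 0.35, so that these 4 dogs were separated from all others by a gap. The 2nd probe gave -1.33, -1.74, -1.36 and -1.55 in the same 4 dogs, against -0.66 to 0.81 in the others, and the 3rd gave -1.14, -1.21, -1.15 and -1.21, against -0.61 to 1.12. All 3 probes thus placed the same 4 dogs lowest. The 4 dogs lay on 3 slides scanned on 3 days, and the TLR2 signal of each was well above background. The correlation between TLR2 probes over dogs was 0.89 to 0.95 in AD dogs and 0.90 to 0.98 in healthy dogs. These values are a description, since the dogs were picked out by their TLR2 values. Between the groups, TLR2 differed by -0.10 ± 0.27 (limma unadjusted p = 0.717), and the other probes by -0.13 and 0.10.

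**Figure D2:**
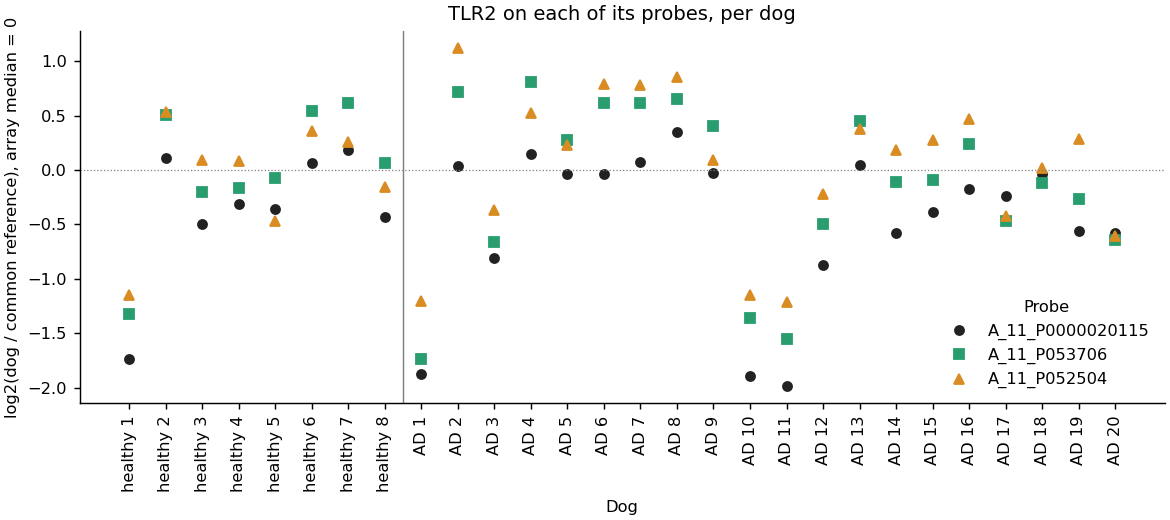
Log2 ratio of dog to common reference (vertical axis) for each of the TLR2 probes (symbols) in every dog (horizontal axis; healthy dogs left of the line). Healthy dog 1 and AD dogs 1, 10 and 11 lie below all other dogs on each of the probes.

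TLR4, the lipopolysaccharide receptor, ranged from -0.68 to 1.09 in AD dogs (median 0.05) and from -0.35 to 0.45 in healthy dogs (median -0.02). AD dog 2 (1.09) and AD dog 14 (0.73) lay above every healthy dog, and 3 AD dogs lay below every healthy dog. The groups differed by 0.06 ± 0.16 (limma unadjusted p = 0.683, 95% confidence interval -0.26 to 0.39), and the 2nd TLR4 probe by 0.20 ± 0.19 (unadjusted p = 0.303). The 2 probes correlated with r = 0.90 in both AD and healthy dogs.

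Among the endosomal receptors, TLR8, a sensor of single-stranded RNA, was between -0.53 and 0.85 in AD dogs (median 0.21) and between -0.61 and 0.45 in healthy dogs (median 0.09). Its difference was 0.15 ± 0.14 (limma unadjusted p = 0.295), and 15 of 20 AD dogs lay above the median of healthy dogs. TLR7, also a sensor of single-stranded RNA, had a ratio below 0 in 15 of 20 AD dogs and 7 of 8 healthy dogs. It ranged from -2.26 to 0.44 in AD dogs (median -0.83) and from -1.29 to 0.12 in healthy dogs (median -0.59), and 7 AD dogs lay below every healthy dog while 3 lay above. The difference of -0.30 ± 0.31 (unadjusted p = 0.331, 95% confidence interval -0.93 to 0.32) was within the spread between dogs. The mean of TLR7 was -0.42 over the AD dogs of scan day 5 and -1.07 over the other AD dogs. The 2nd TLR7 probe differed by -0.10 ± 0.19 and correlated with the 1st with r = 0.60 in AD dogs and 0.75 in healthy dogs.

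TLR3, a sensor of double-stranded RNA, had a log2 ratio of -2.34 to 1.58 in AD dogs (median -0.33) and of -0.36 to 0.06 in healthy dogs (median -0.08). The SD was 1.35 over the 6 AD dogs of scan day 5, where most signals were not above background, against 0.30 over the other 14 AD dogs and 0.14 over healthy dogs. The difference was -0.26 ± 0.25 (limma unadjusted p = 0.306). Without scan day 5 it was -0.29 with an unadjusted p of 0.0247 and an adjusted p of 0.448, which did not pass the threshold.

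TLR9, a sensor of unmethylated CpG DNA, had the largest difference of the 12 probes, 0.47 ± 0.33 on the log2 scale (limma unadjusted p = 0.174, adjusted p = 0.866), with a 95% confidence interval of -0.22 to 1.15. It spread from -1.17 to 1.83 in AD dogs (median 0.74) and from -0.98 to 1.35 in healthy dogs (median 0.22). Of the AD dogs, 5 lay above every healthy dog and 1 below. For MYD88, the adaptor, the ratio was -0.27 to 0.94 in AD dogs (median 0.33) and -0.24 to 0.73 in healthy dogs (median 0.21), a difference of 0.10 ± 0.16 (unadjusted p = 0.511). The mean of MYD88 was 0.04 over the AD dogs of scan day 5 and 0.47 over the other AD dogs. The part of scan day in this spread was not tested.

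The common reference channel held the same RNA on every array, and alone it differed between AD and healthy arrays for 39.4% of probes at an adjusted p of 0.085 (limma). Of the 12 probes of the receptors and MYD88, 4 were among these. The reference signal on AD arrays was higher by 0.11 (adjusted p = 0.0295) and 0.22 (adjusted p = 0.00225) on the TLR4 probes, by 0.26 (adjusted p = 0.00504) for MYD88 and by 0.29 (adjusted p = 0.00110) for the TLR2 probe A_11_P053706. On each of these 4 probes the reference shift was larger in size than the difference in ratio between the groups given above. The reference channel was normalized on its own here, by quantiles between arrays, and not as part of the ratio. How much of the shift enters the ratio was not tested.

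Of 43 genes of the Toll-like receptor pathway (further receptors, co-receptors, adaptors, kinases and transcription factors), 32 were measured, and 0 passed the adjusted threshold. At an unadjusted p under 0.05, 1 was higher and 1 lower in AD dogs, beside the 1.65% and 4.46% of all probes. The median difference was -0.02, and 43.8% of the genes had a positive difference, against 47.9% of all probes. TOLLIP, an inhibitor of receptor signaling, differed by 0.38 ± 0.15 (limma unadjusted p = 0.0162, adjusted p = 0.593), with the same sign on both of its other probes. PELI1, a ubiquitin ligase of the IRAK complex, differed by -0.23 ± 0.10 (unadjusted p = 0.0281, adjusted p = 0.700), but its other probe had the opposite sign. The next genes by p were FOS (0.41 ± 0.22, p = 0.0674) and JUN (-0.20 ± 0.14, p = 0.163), which form the transcription factor AP-1, and TRAF3 (-0.24 ± 0.17, p = 0.172), a signaling adaptor, all unadjusted in limma. The other TRAF3 probe had the opposite sign.

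Of the cytokines and other genes that are induced through these receptors, 10 were measured, and 2 were higher and 0 lower at an unadjusted p under 0.05, beside the 1.65% and 4.46% of all probes. These were IL8, the neutrophil chemokine, with 0.65 ± 0.28 (limma unadjusted p = 0.0299, adjusted p = 0.712), and NFKBIA, the inhibitor that NF-κB induces, with 0.32 ± 0.13 (unadjusted p = 0.0229, adjusted p = 0.657). All other probes of both genes had the same sign. IL10 (0.24 ± 0.18), TNF (0.22 ± 0.21) and IL1B (0.22 ± 0.28) did not pass. The median difference over the 10 genes was 0.20, against -0.0096 over all probes. The neutrophil markers had a median difference of 0.18 with 8 of 10 positive, and none of them passed an unadjusted p under 0.05. Their part in the values of the induced genes was not tested.

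To see which receptors varied together, all 28 pairs of the 8 measured genes were correlated over dogs within each group, 56 relations in all. In AD dogs 5 pairs passed an adjusted p of 0.05 (Pearson, permutation test, two-sided, 100000 permutations), and in healthy dogs 0 passed (exact permutation test), where 1 pair was under 0.05 before adjustment. The sign of r was the same in both groups for 16 of 28 pairs. Differences in r between the groups were not tested, and with 8 dogs only large correlations can pass.

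**Figure D3:**
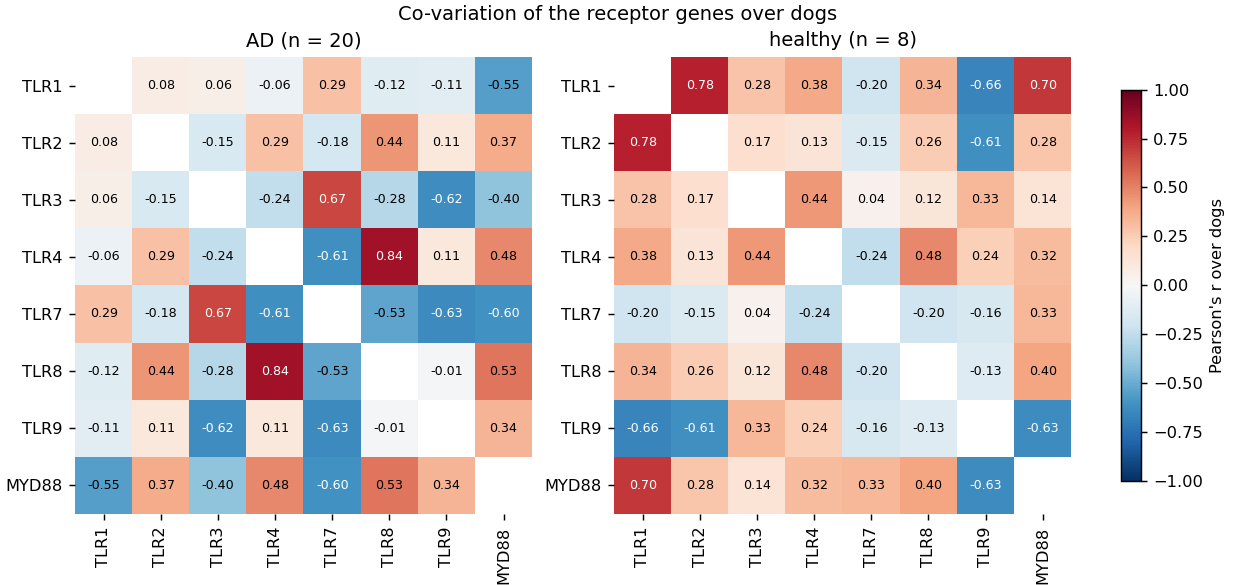
Pearson's r between the log2 ratios of each pair of genes over 20 AD dogs (left) and 8 healthy dogs (right), with color from -1 (blue) to 1 (red). In AD dogs TLR4 and TLR8 stand out with 0.84, and TLR7 is negative with TLR4, TLR8, TLR9 and MYD88.

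Among the pairs in AD dogs, TLR4 and TLR8 had the largest r, which was 0.84 (permutation p = 2e-05, adjusted p = 0.00112) and Spearman's rho was 0.77 (permutation p = 0.00017, adjusted p = 0.00952). AD dog 2 was highest in both genes, and AD dogs 7, 11 and 20 were lowest in both. Without the 2 dogs farthest from the TLR4 median r was 0.74, with the mean of each slide removed it was 0.84, and without scan day 5 it was 0.84. Among the 30201 other probes ranked by r with TLR4 in AD dogs, TLR8 was at place 9. The 2nd TLR4 probe gave r = 0.79 with TLR8. In healthy dogs r was 0.48 (exact permutation p = 0.231) and rho 0.24 (exact permutation p = 0.582). Without the 2 farthest healthy dogs it turned to -0.79, so the healthy value rests on those dogs.

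The markers of blood cells were set beside the receptors in a second family of 160 relations, from 8 genes, 9 marker lists, 1 group of G+C-rich probes and 2 groups of dogs. TLR4 rose with the mean of the neutrophil markers over AD dogs (r = 0.76, permutation p = 5e-05, adjusted p = 0.0020), although Spearman's rho was 0.53 (permutation p = 0.0177, adjusted p = 0.167). It was 0.75 with slide means removed, 0.87 without scan day 5 and 0.59 without the 2 farthest dogs. In healthy dogs r was 0.80 (exact permutation p = 0.0187, adjusted p = 0.124) and fell to 0.30 without the 2 farthest. For TLR8 and neutrophil markers r was 0.62 in both AD (permutation p = 0.00362, adjusted p = 0.0527) and healthy dogs (exact permutation p = 0.101), with rho of 0.42 (permutation p = 0.0695) and 0.52 (exact permutation p = 0.197). Without the 2 farthest dogs r fell to 0.38 in AD dogs and turned to -0.36 in healthy dogs. With the monocyte markers, TLR4 gave r = 0.18 in AD dogs (permutation p = 0.454) and TLR8 0.53 (permutation p = 0.0151, adjusted p = 0.105). Each marker of the neutrophil list was positive with TLR4 in AD dogs, from 0.24 for CAMP, an antimicrobial peptide gene, to 0.72 for S100A8 and S100A9, which encode the calprotectin subunits. The part of neutrophil content in the relation of TLR4 with TLR8 was not tested.

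**Figure D4:**
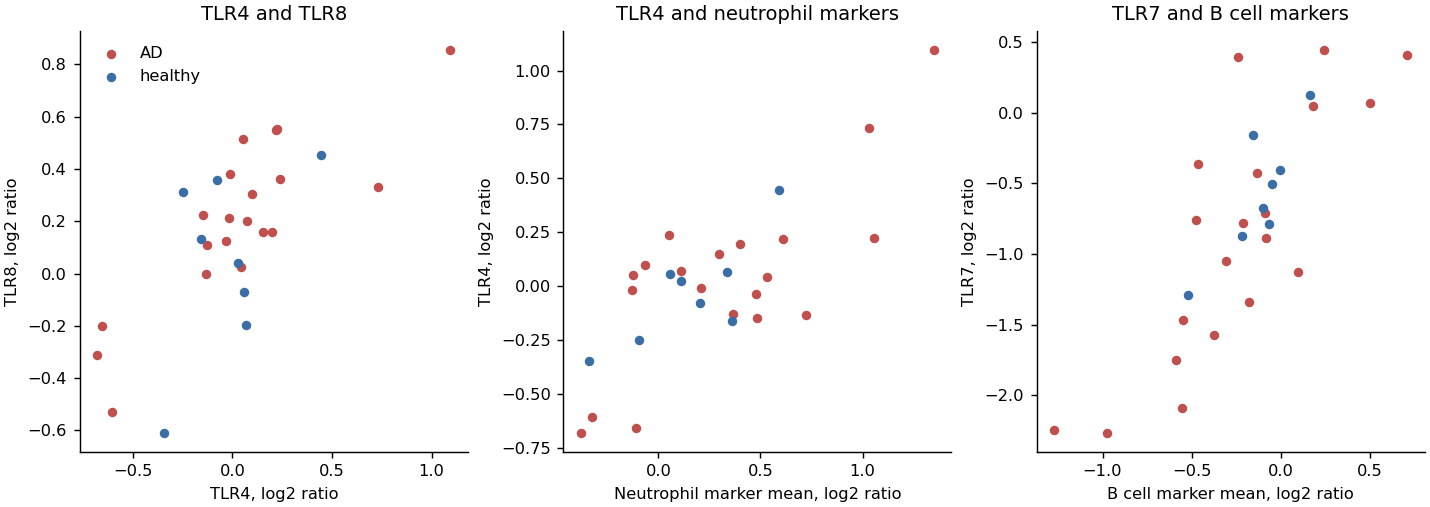
Log2 ratios of TLR8 against TLR4 (left), of TLR4 against the mean of the neutrophil markers (middle) and of TLR7 against the mean of the B cell markers (right), with 1 point per AD dog (red) or healthy dog (blue). All 3 rise from left to right in AD dogs, with r of 0.84, 0.76 and 0.80.

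TLR7 rose with the B cell markers, with r = 0.80 in AD dogs (permutation p = 2e-05, adjusted p = 0.00107) and rho = 0.77 (permutation p = 0.00011, adjusted p = 0.0044). It was 0.57 with slide means removed, 0.71 without scan day 5 and 0.71 without the 2 farthest dogs. In healthy dogs r was 0.84 (exact permutation p = 0.0114, adjusted p = 0.101), and 0.25 without the 2 farthest. Of single B cell genes, MS4A1 (CD20) gave r = 0.86, CD79B 0.84, CR2 0.82 and PAX5 0.72 in AD dogs, but CD79A gave 0.09. The 2nd TLR7 probe was less related to the B cell markers in AD dogs (r = 0.34) than in healthy dogs (r = 0.74), and the difference was not tested. With the 3 plasmacytoid dendritic cell markers measured, TLR7 gave r = 0.28 in AD dogs (permutation p = 0.236).

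The other 4 pairs that passed in AD dogs all involved TLR7 or TLR9. TLR7 fell as TLR4 rose (r = -0.61, permutation p = 0.00342, adjusted p = 0.0383; rho = -0.62, permutation p = 0.00524) and as TLR9 rose (r = -0.63, permutation p = 0.00265, adjusted p = 0.0371; rho = -0.60, permutation p = 0.00583). TLR3 rose with TLR7 (r = 0.67, permutation p = 0.00031, adjusted p = 0.00868; rho = 0.67, permutation p = 0.00163) and fell with TLR9 (r = -0.62, permutation p = 0.00137, adjusted p = 0.0256; rho = -0.60, permutation p = 0.00634). By rho, only TLR3 with TLR7 passed among these pairs (adjusted permutation p = 0.0456). For each of the others the adjusted permutation p of rho was 0.0710. Without the 2 farthest dogs these r were -0.51, -0.54, 0.54 and -0.42, and with slide means removed -0.44, -0.52, 0.63 and -0.59. Without scan day 5 these r were -0.67, -0.66, 0.58 and -0.25, and none of the 4 passed among the 14 dogs left. With slide means removed, and again with normexp background correction and loess, the calls of TLR4 with TLR7, TLR7 with TLR9 and TLR3 with TLR9 were lost, and with the dog's channel alone those of TLR4 with TLR7 and TLR3 with TLR7. With the 2nd TLR7 probe in place of the brightest, r was -0.35 with TLR4, -0.40 with TLR9 and 0.37 with TLR3. In healthy dogs the corresponding r of the brightest probes were -0.24, -0.16, 0.04 and 0.33, with exact permutation p of 0.422 to 0.918. Among the 30201 other probes in AD dogs, 0.268% were at least as negative with TLR4 as TLR7 was. With TLR7, 6.26% were at least as negative as TLR4. For TLR7 with TLR9 these shares were 4.61% (ranked by TLR7) and 12.5% (ranked by TLR9). For TLR3 with TLR9 they were 3.87% (ranked by TLR3) and 13.4% (ranked by TLR9). Shares at least as high for TLR3 with TLR7 were 0.583% (ranked by TLR3) and 6.95% (ranked by TLR7).

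TLR9 followed the probes rich in G and C. Over AD dogs its r with the mean log2 ratio of the 348 tested probes with at least as much G and C was 0.97 (permutation p = 1e-05, the smallest that 100000 permutations can give, adjusted p = 0.0008), and rho was 0.95 (permutation p = 1e-05). In healthy dogs r was 0.93 (exact permutation p = 0.000397, adjusted p = 0.0127) and rho 0.95 (exact permutation p = 0.00114). Leaving out the 2 farthest dogs gave 0.96 and 0.93, and removing slide means gave 0.97 and 0.93. Over AD dogs, TLR3 fell as the mean of these probes rose (r = -0.60, permutation p = 0.00255, adjusted p = 0.0453; rho = -0.60, permutation p = 0.00604), with r = -0.42 without the 2 farthest dogs, -0.61 with slide means removed and -0.25 without scan day 5. The rho of TLR3 did not pass after adjustment (adjusted permutation p = 0.0919). For TLR7 r was -0.59 (permutation p = 0.00709, adjusted p = 0.0945; rho = -0.58, permutation p = 0.00814). The part of these probes in the relations of TLR9 with TLR3 and TLR7 was not tested. The mean of these 348 probes itself ranged from -0.41 to 0.77 over AD dogs and from -0.27 to 0.35 over healthy dogs. This group of probes was not part of the planned comparisons, and its cut was the G and C content of the TLR9 probe.

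TLR9 also followed the red cell markers, of which the median G+C content was 45%. In AD dogs r was 0.94 (permutation p = 1e-05, adjusted p = 0.0008) and rho 0.91 (permutation p = 1e-05), and in healthy dogs r was 0.90 (exact permutation p = 0.00317, adjusted p = 0.0508) and rho 0.81 (exact permutation p = 0.0218). Without the 2 farthest dogs these r were 0.92 and 0.68, and with slide means removed 0.93 and 0.88. KLF1, the erythroid transcription factor, gave 0.96 with TLR9 in AD dogs, EPB42 0.93, SLC4A1 0.91, ALAS2 0.90 and AHSP 0.85, while CA1 gave 0.36. The mean of the red cell markers and the mean of the G+C-rich probes were related to each other over AD dogs with r = 0.89. When each array was centered within classes of probes of like G+C content, an alternative chosen after seeing the data, the SD of TLR9 fell from 0.90 to 0.55 in AD dogs and from 0.73 to 0.54 in healthy dogs, and its r with the red cell markers was 0.92 and 0.93. With B cell markers TLR9 gave r = -0.44 (permutation p = 0.0514) and with plasmacytoid dendritic cell markers 0.04 (permutation p = 0.856) in AD dogs. What part base content, red cell RNA and TLR9 transcript have in the TLR9 signal was not tested.

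**Figure D5:**
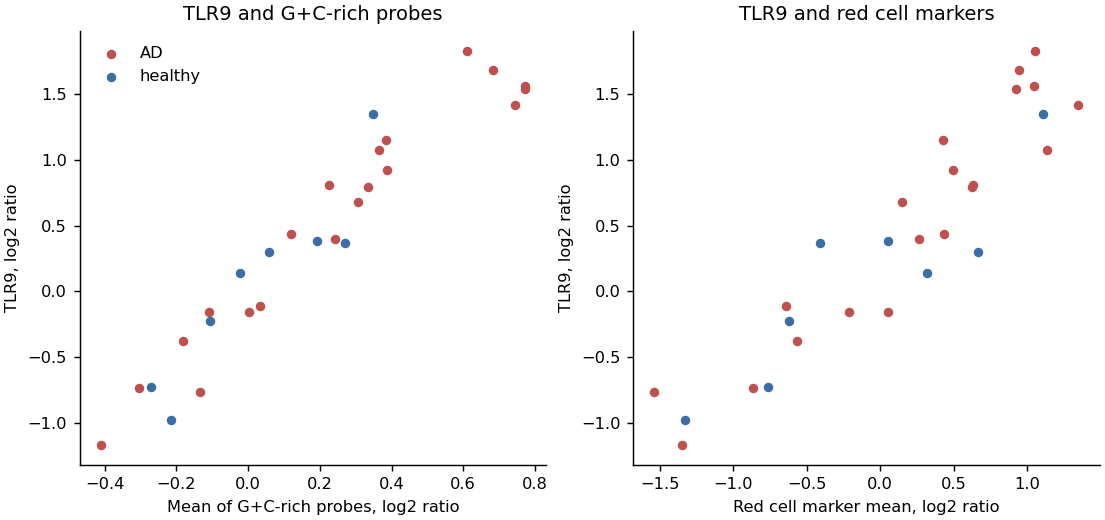
Log2 ratio of TLR9 (vertical axes) against the mean of 348 G+C-rich probes (left) and the mean of the red cell markers (right), with 1 point per AD dog (red) or healthy dog (blue). TLR9 rises along both axes, with r of 0.97 and 0.94 in AD dogs.

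The genes most like each receptor were ranked by r over all 28 arrays after the mean of each slide was removed, among 10763 genes with a symbol, and are given as a description. For TLR4 they were FCGR1A, the high-affinity IgG receptor (r = 0.88), GPR137B (0.87) and GK, glycerol kinase (0.81). For TLR8 they were ACSS1, an acetyl-CoA synthetase (0.85), DGAT2, an enzyme of triglyceride synthesis (0.82), and CASP4, an inflammatory caspase (0.81). For TLR7, BLNK, the adaptor of the B cell receptor, was at the top (0.85), followed by PHF17 (0.84) and FNTB, a farnesyltransferase subunit (0.83). With slide means kept, BLNK reached r = 0.93 over AD dogs and 0.88 over healthy dogs, and 0.47 and 0.70 with the 2nd TLR7 probe. For MYD88 they were IL1RN, the interleukin-1 receptor antagonist (0.81), SEMA4D (0.80) and ITM2B (0.78).

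TLR2 and TLR1 had looser partners. TLR2 was most like CBL, a ubiquitin ligase (0.75), RNF24 (0.71) and TSPAN17 (0.71), and TLR1 like MCL1, an anti-apoptotic protein (0.73), GPATCH2 (0.72) and UHRF1BP1L (0.72). For TLR3 the partners were TIMELESS (0.88), MRPL17 (0.88) and PGM3 (0.85), but in healthy dogs alone, where TLR3 was always above background, r was 0.45, -0.04 and 0.02. TLR9 had the closest partners of all, ESRP2, GGT6 and NAA10, each with r = 0.99, and their probes held 55%, 73.3% and 53.3% G and C bases.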

How the data were processed

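Two-color arrays measured blood RNA, 1 array per dog (20 AD, 8 healthy). The authors extracted spot intensities with Agilent Feature Extraction (version 10.7.3.1 per the labels), with background subtraction and Lowess dye normalization; the deposited table of processed values holds the log10 ratios of the same files. The deposited marks for signals well above background gave detection. Members, gene lists and the rule for named genes (pathway and response genes by smallest p, the 3 most similar genes per receptor) were chosen with earlier results of these data known. In R 4.3.3, the log2 ratio of processed signals was computed, outlier spots were set to missing, spots of a probe were averaged, and probes with a median signal above 100 in either channel and group were kept (30202) and centered per array. The groups were compared in limma 3.58.1, Benjamini-Hochberg adjusted over these probes; the brightest probe represented a gene. Correlations used permutation tests in Python 3.11.15 with numpy 2.4.6. The scripts were tested on simulated data. Some single marker genes are not reported here. The number of arrays limits the precision. Alternatives varied the filter, background correction, centering, reference, blocks, weights and slides.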

Additional observations from a re-analysis of the deposited data

Results flagged for a closer look

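TLR2 in healthy dog 1 lay far from the other 7 healthy dogs on 2 of its probes. Its log2 ratio was -1.74 on the brightest probe, where the nearest healthy dog had -0.50, and -1.33 on probe A_11_P053706, where the nearest had -0.21. The gap to the nearest dog was 64.5% and 57.7% of the range of the 8 dogs. On the third probe the value was -1.14, with a gap of 40.3%. Chance alone marks about 1 in 20 groups in this way. The 2 values come from 1 gene in 1 dog and are not independent. AD dogs 1, 10 and 11 had TLR2 values of the same size, and the cause was not tested.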

How the results depend on the processing

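No probe of the receptors or MYD88 passed the adjusted threshold of 0.085 under any of the 22 alternatives. Over all probes, 0 were called, but 3 with no filter on signal, 1 with detection on at least 8 arrays, 33 with normexp and loess, 1056 with the dog's channel alone and 1009 with array weights. At an unadjusted p under 0.05, 0 of the 12 member probes passed, against 2 with the dog's channel alone, 2 with array weights (TLR7 -0.59, TLR9 0.62) and 1 (TLR3) without slide 8 or without scan day 5. Of the pathway genes, 1 was called with the dog's channel alone and 2 with array weights. At an unadjusted p under 0.05 the count of 2 became 8 with the dog's channel alone, 5 with array weights, 4 without scan day 5, 1 with slide as a random block and 0 without slide 3. Of all probes, 6.12% passed this mark, and 19.2%, 20.0%, 9.29%, 3.98% and 2.60% under these alternatives in turn. Without slide 8 the share of all probes was 7.92%.

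Dog numbers 1 to 8 occur in both groups but name different animals. The deviations of dogs with the same number correlated from -0.36 to 0.42, with 4 of 8 pairs over 0.1, and 3 of 8 AD dogs correlated best with their own number. With the dog number as a replicate block, 5 member probes and 7 pathway genes passed an unadjusted p under 0.05, as did 17.1% of all probes, 0 were called, and TLR2 turned to 0.11.

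TLR2 also turned to 0.14 without slide 3 and 0.082 without slide 5, TLR1 to 0.0047 without slide 1, MYD88 to -0.090 without slide 3 and TLR3 to 0.00011 with normexp and loess. None of these values passed the test. TLR4, TLR7, TLR8 and TLR9 kept their direction, but with ranges of 0.0094 to 0.15 (lowest without slide 1), -0.65 to -0.037 (nearest to 0 with normexp and loess), 0.086 to 0.22 and 0.21 to 0.69 (lowest with the dog's channel alone). TLR3 had no value when all 4 medians had to exceed 100. Of pairs called in AD dogs, the count of 5 became 3 with slide means removed, 8 with centering within G+C classes, 1 without the 2 farthest dogs and 1 without scan day 5, and TLR4 with TLR8 was called each time. With slide means removed, 2 of the 5 kept their call and TLR2 with TLR8 was added. In healthy dogs it was 0, and 1 (TLR1 with TLR2) with slide means removed, with normexp and loess and with G+C classes. Among the pairs called in AD dogs, healthy r turned for TLR3 with TLR7 to -0.29 (normexp and loess) and -0.53 (dog's channel alone), for TLR3 with TLR9 to -0.019 (normexp and loess), for TLR4 with TLR8 to -0.79 (without the 2 farthest dogs) and for TLR7 with TLR9 to 0.012 (G+C classes). The causes were not tested. Low signal limits TLR3, and the small healthy group limits its correlations.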

Other observations

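A further 3 relations between receptors and cell markers passed in AD dogs within the family of 160. TLR1 rose with the cytotoxic lymphocyte markers (r = 0.63, permutation p = 0.00243, adjusted p = 0.0453; rho = 0.77, permutation p = 0.00011), but r was 0.39 with slide means removed. TLR7 fell as the neutrophil markers rose (r = -0.66, permutation p = 0.00177, adjusted p = 0.0405; rho = -0.60, permutation p = 0.00632), and r was -0.65 with slide means removed. MYD88 fell as the T cell markers rose (r = -0.67, permutation p = 0.00115, adjusted p = 0.0307; rho = -0.62, permutation p = 0.00413), with r = -0.50 after removal of slide means. By rho, only the relation of TLR1 passed (adjusted permutation p = 0.0044). For those of TLR7 and MYD88 the adjusted permutation p of rho was 0.0919. Without the 2 dogs farthest from the median of the receptor these r were 0.58, -0.52 and -0.62. In healthy dogs they were 0.0097, -0.44 and 0.0097, and no test passed there.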
